A study of Mus musculus with 28 samples.

Results

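The 36 genes described here encode the working parts of the lysosome: 9 proteases, 7 glycosidases, 4 enzymes or activators of lipid breakdown, 5 proteins of the lysosomal membrane, 4 factors of sorting and regulation, and 7 subunits or accessory proteins of the proton pump. They were taken by gene symbol from the annotation of the array. All 36 had a probe, with 80 probes among them, and 35 passed the detection filter out of 9951 genes that did so in all. Gla, which encodes alpha-galactosidase A, had 1 probe that was above background on 0 of 28 arrays, so it has no measured change.

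The cells were the mouse line XEN-eYFP, a single line of extraembryonic endoderm stem cells, all treated for 96 h and profiled from 200 ng of total RNA on Illumina MouseWG-6 v2 arrays. Media stands for culture medium without addition (5 arrays), Nodal for 50 ng/ml of that protein (5 arrays) and Cripto for 100 ng/ml of that protein (5 arrays). The kinase inhibitor SB431542, for which no dose is given, was added to medium (5 arrays), to the same dose of Nodal (3 arrays) and to the same dose of Cripto (5 arrays). Nodal is a secreted ligand of the TGF-beta family, Cripto is its co-receptor at the cell surface, and SB431542 blocks the kinase of the type I receptors of Nodal. Nothing in the labels says that replicates were separate cultures, so each p-value measures only the spread between these samples, which may be technical.

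Lysosomes digest material that reaches them by endocytosis or autophagy. Most luminal hydrolases are made in the endoplasmic reticulum and are carried from the Golgi by mannose 6-phosphate receptors or by sortilin, and they need the acid interior that the vacuolar proton pump (V-ATPase) maintains. Visceral endoderm, a tissue to which XEN cells are related, takes up maternal protein in bulk and breaks it down in large vacuoles. Many lysosomal genes carry the CLEAR element, a palindrome bound by the transcription factor TFEB and its relatives.

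The CLEAR core is shown first because many lysosomal genes are known to carry it. RefSeq promoters (GRCm38.p6, 250 bases before to 50 bases after the start) were matched for 29 of the 36 genes, giving 34 promoters. The palindrome TCACGTGA occurred in 6 of the 34 promoters (17.6%) and in 0.974% of all 32851 promoters of the table. Its shorter form TCACGTG, counted on both strands and including the palindrome, was in 32.4% against 3.77%, and the E-box CACGTG, which both contain, was in 35.3% against 7.15%. The motif was chosen because lysosomal genes are known to carry it, so the higher shares are not counted as a result. The genes with the palindrome were Ctsa, Ctsd, Gla, Mcoln1, Atp6v0d1 and Atp6v1a. A match describes the letters of this window and is not a measured binding site. Stretches of 120 bases from 4 of them follow, 5′ to 3′ on the strand of the gene, with the palindrome in capitals.
Ctsa, chr2:164833653-164833772, plus strand: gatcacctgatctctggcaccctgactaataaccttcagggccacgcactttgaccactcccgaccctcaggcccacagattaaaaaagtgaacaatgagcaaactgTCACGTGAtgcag
Atp6v1a, chr16:44139292-44139411, minus strand: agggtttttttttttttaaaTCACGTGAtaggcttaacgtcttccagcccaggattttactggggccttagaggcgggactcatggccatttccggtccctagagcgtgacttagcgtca
Ctsd, chr7:142387828-142387947, minus strand: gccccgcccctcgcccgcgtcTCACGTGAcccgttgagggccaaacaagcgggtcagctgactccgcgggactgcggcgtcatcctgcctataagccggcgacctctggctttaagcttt
Gla, chrX:134601134-134601253, minus strand: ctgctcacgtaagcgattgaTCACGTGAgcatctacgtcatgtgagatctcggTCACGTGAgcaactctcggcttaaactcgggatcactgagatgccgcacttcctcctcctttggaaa
Of these 4, Ctsa and Ctsd fell and Atp6v1a rose after either protein, as described below, and Gla was not detected.

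The arrays differed in brightness. Their mean signal ranged from 183.8 to 995 intensity units and 13191 to 16183 probes were detected on each. Cells given Nodal or Cripto gave brighter arrays, with group means of 674 ± 223 (SD, n = 5) for Nodal, 711 ± 269 (n = 5) for Cripto and 781 ± 103 (n = 5) for Cripto with SB431542, against 442 ± 151 (n = 5) for Media. The part of brightness in the results was not tested beyond a fit with brightness as a covariate. Nodal replicate 1 had the lowest mean correlation with its own group (0.91), and some of the results that rest on it are also given without it. Of 8 extraembryonic endoderm markers 7 had a probe (Gata4, Gata6, Sox17, Sox7, Foxa2, Dab2 and Pdgfra), and all 7 were detected on all 28 arrays. Their summed level ranged from 48475 to 60619 intensity units in Media, 40745 to 63389 in Nodal and 38505 to 47348 in Cripto. With Nodal 1 of the 7 markers was higher and 2 lower, and with Cripto 0 were higher and 3 lower. Of all genes, 28.7% were higher and 28.9% lower with Nodal, and 32% and 32.5% with Cripto. With each array centred on the median of all its probes, 3 of the 7 were higher and 0 lower with Nodal. With Cripto 4 were higher and 1 lower. Most of the 45281 probes of an array were not detected, so this median lay among undetected probes. Macrophages are rich in lysosomes, and 6 of 10 macrophage markers (Ptprc, Itgam, Adgre1, Aif1, Fcgr1 and Spi1) were detected on 0 arrays. The summed level of the macrophage list ranged from 382 to 467 in Media, 373 to 423 in Nodal, 412 to 560 in Cripto and 489 to 610 intensity units in Cripto with SB431542. The other 4 markers of that list passed the test after each protein, 2 as higher and 2 as lower. Tyrobp was detected on 4 of 5 Media, 3 of 5 SB431542 and 2 of 3 Nodal with SB431542 arrays and Lyz2 on 2 of 5, 2 of 5 and 1 of 3. Both were detected on 0 arrays of Nodal, Cripto, and Cripto with SB431542. With quantile normalisation, those are the groups in which most hydrolase genes were low. Csf1r rose from a mean log2 level of 6.25 in Media to 6.79 with Nodal and 7.01 with Cripto, and Cd14 from 5.31 to 5.87 and 6.68. Among fibroblast markers 6 of 9 were detected on no array, among trophoblast markers 5 of 7, and among 7 epiblast markers Nanog, Tdgf1 and Utf1. The summed level of the trophoblast list was 186 to 229 in Media and 279 to 372 in Cripto. The part of these markers in the results was not tested. In these bulk samples, fewer cells of a type and less RNA per cell cannot be told apart.

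After Nodal, with quantile normalisation, 13 of 19 luminal genes (proteases, glycosidases and genes of lipid breakdown) were lower. A small set of genes led by cathepsin H, sortilin and acid lipase was higher, as were several proton pump genes. With each array centred on its median instead, 3 of 9 proteases, 3 of 6 glycosidases and 2 of 4 genes of lipid breakdown were lower. Of the 35 measured genes, 28 passed the test against Media (80%), 11 higher and 17 lower, with a median log2 change of -0.27. Over all 9951 genes 57.6% passed, 28.7% higher and 28.9% lower, with a median of 0.01. The test was limma's moderated test with the BeadChip as a term and Benjamini-Hochberg adjustment over all genes. The direction of the median depends on the scaling. With each array centred on the median of all its probes, most of them not detected, the median of the 35 genes was 0.28. There 15 genes were higher and 9 lower, and the median of all genes moved to 0.45. With quantile normalisation but without Nodal replicate 1, the median of the 35 genes was -0.01.

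After Cripto the falls were more numerous and larger. Again 28 of the 35 passed (80%, against 64.5% of all genes), but 7 were higher and 21 lower, where 32% of all genes were higher and 32.5% lower. The median log2 change was -0.64 against 0.01 for all genes, and with median centring it was -0.12 with 12 genes higher and 13 lower, while the median of all genes was 0.44. The comparisons of Nodal and of Cripto with Media share the 5 Media arrays, so their values are set side by side below and their likeness is not counted as a result. Cripto with SB431542 was compared with SB431542 alone, which uses other control arrays within the same fit of all arrays. There 28 of 35 passed (65.5% of all genes), 7 higher and 21 lower (31.8% and 33.7% of all genes), with a median of -0.70, or -0.27 with median centring.

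**Figure D1:**
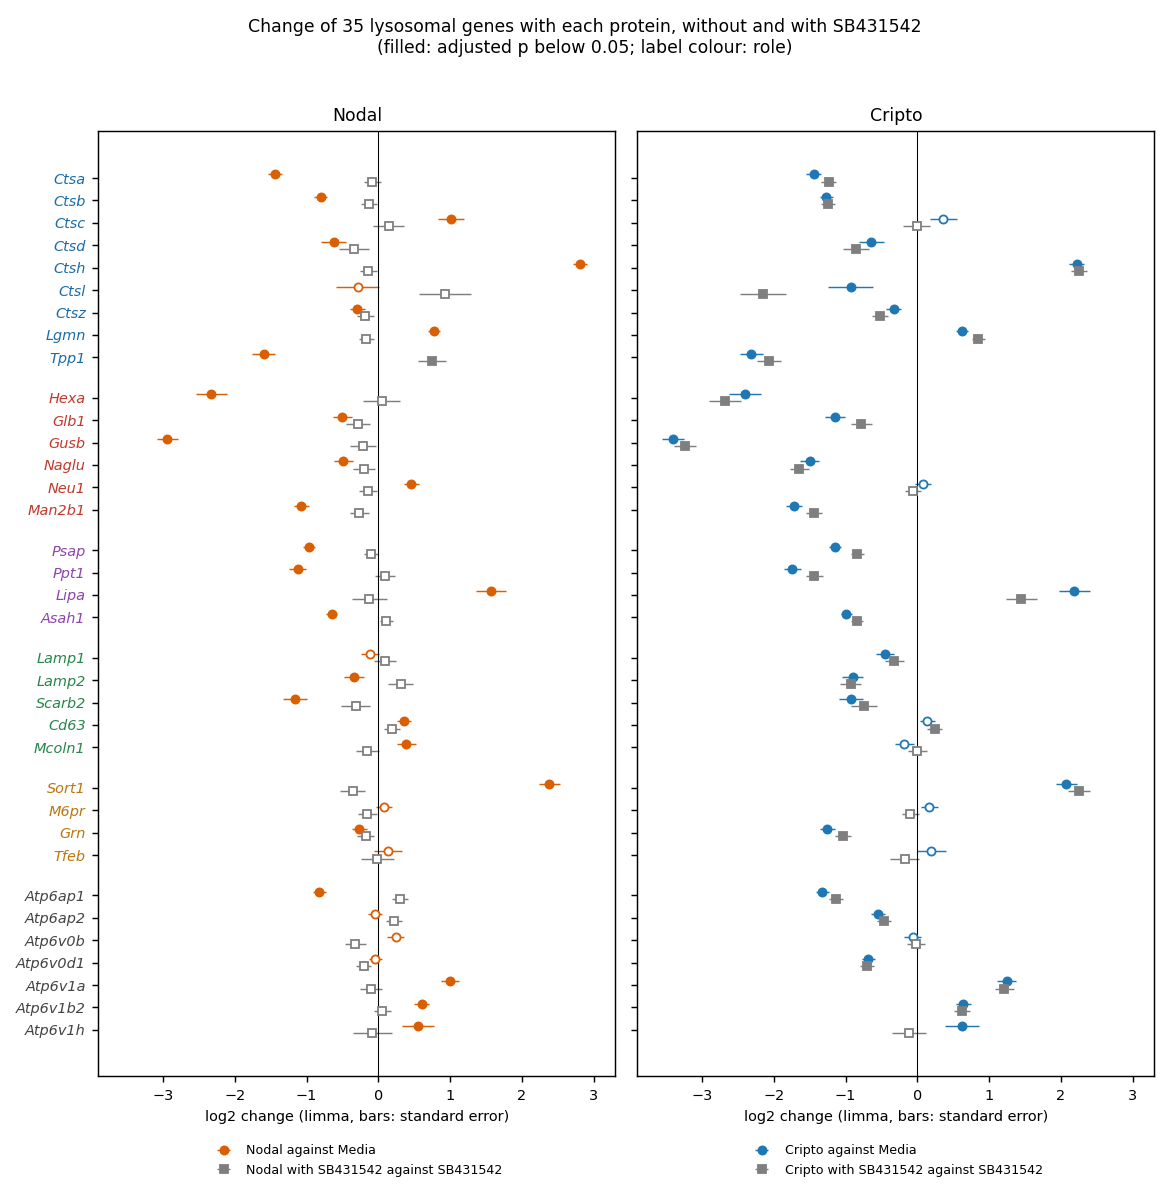
Log2 change of each of the 35 measured lysosomal genes (rows, grouped and coloured by role) after Nodal (left) and Cripto (right). Circles show the protein against Media and grey squares the protein with SB431542 against SB431542, bars are limma standard errors, and filled symbols passed at an adjusted p below 0.05. The squares of the left panel lie near 0 except for Ctsl and Tpp1. Those of the right panel lie close to the circles for most genes, with the widest gaps for Ctsl, Atp6v1h and Lipa (interactions of -1.23, -0.74 and -0.74). With arrays centred on their medians, the called falls of Grn, Lamp2, Ctsz, Glb1 and Naglu after Nodal and of Lamp1, Atp6ap2 and Ctsz after Cripto turn positive.

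Beside the counts of each role below, the shares of all genes were 28.7% higher and 28.9% lower after Nodal and 32% and 32.5% after Cripto. Among the 9 proteases, 5 fell and 3 rose after Nodal and 6 fell and 2 rose after Cripto. Their median was -0.29 after Nodal and -0.64 after Cripto, and with median centring 0.16 and -0.14. Cathepsin H (Ctsh), an aminopeptidase, had the highest rise of the 35 measured genes after either protein. Its normalised log2 level was 8.06, 8.21, 7.92, 8.69 and 8.45 in the Media arrays, 10.57, 11.02, 11.09, 11.37 and 11.33 with Nodal and 10.35, 10.29, 10.31, 10.77 and 10.76 with Cripto. With the inhibitor it was 7.98, 8.01, 8.08, 8.25 and 8.39 in SB431542 alone, 7.91, 7.74 and 7.85 with Nodal and 10.17, 10.38, 10.37, 10.39 and 10.63 with Cripto. Every Nodal, Cripto and Cripto with SB431542 array lay above every array of the other 3 groups. The log2 change was 2.81 ± 0.10 (SE) for Nodal against Media (7-fold, adjusted p = 4.68e-15), 2.22 ± 0.11 for Cripto and 2.25 ± 0.11 for Cripto under the inhibitor. Within single chips the Nodal difference ran from 2.50 to 3.16. A second detected Ctsh probe changed by 2.997 and 2.23.

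Tpp1, a peptidase that removes tripeptides from the amino terminus of proteins, moved the other way. Its level was 10.40, 10.44, 10.37, 10.17 and 11.20 in Media, 8.14, 9.12, 9.13, 8.96 and 9.22 with Nodal and 8.002, 8.03, 8.39, 8.20 and 8.43 with Cripto. In SB431542 it was 10.35, 10.40, 10.35, 10.08 and 11.16, with Nodal added 11.13, 11.14 and 11.13, and with Cripto added 8.49, 8.58, 8.61, 8.48 and 8.61. All Nodal and Cripto arrays lay below all Media arrays, and Media replicate 5 and SB431542 replicate 5 stood above the rest of their groups. The change was -1.60 ± 0.16 for Nodal (adjusted p = 3.74e-08) and -2.31 ± 0.16 for Cripto (adjusted p = 1.53e-10), with -2.26 to -1.20 and -2.77 to -1.97 within chips. Without Nodal replicate 1 the Nodal value was -1.43.

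Cathepsin A (Ctsa) is a carboxypeptidase that also holds beta-galactosidase and neuraminidase in a stable complex. It stood at 12.11, 12.18, 12.11, 12.50 and 12.20 in Media, 10.93, 10.46, 10.58, 11.02 and 10.89 with Nodal and 10.56, 10.62, 10.52, 11.24 and 10.90 with Cripto. With the inhibitor the values were 12.03, 12.05, 11.99, 12.42 and 12.21 for SB431542 alone, 11.89, 11.95 and 11.96 with Nodal and 11.14, 10.63, 10.68, 10.98 and 10.88 with Cripto. The Nodal, Cripto and Cripto with SB431542 arrays were all below the other groups. On this probe the change was -1.44 ± 0.10 for Nodal (adjusted p = 1.90e-10, -1.73 to -1.18 within chips) and -1.44 ± 0.10 for Cripto (adjusted p = 2.07e-10). The other 4 detected Ctsa probes did not pass for Nodal, with changes from -0.31 to 0.14, but all 4 were lower with Cripto, from -0.95 to -0.66. The fall after Nodal therefore rests on 1 of 5 probes.

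The other proteases split in direction. Cathepsin B (Ctsb), an abundant cysteine protease, fell, with a log2 change of -0.80 ± 0.09 after Nodal and -1.27 ± 0.09 after Cripto, and cathepsin D (Ctsd), the main aspartic protease of the lysosome, did so too (-0.62 ± 0.17 and -0.64 ± 0.18). Both Ctsd calls were lost with median centring (-0.16 and -0.14), without the chip term (adjusted p = 0.185 and 0.117) and with brightness as a covariate (adjusted p = 0.138 and 0.149). Cathepsin Z (Ctsz), a carboxypeptidase, fell less (-0.29 ± 0.10 and -0.33 ± 0.10), which median centring turned to 0.28 and 0.26, and the Nodal call was lost without Media replicate 4 or 5 (adjusted p up to 0.0661). Legumain (Lgmn), the asparaginyl endopeptidase that processes cathepsins, rose by 0.77 ± 0.09 and 0.62 ± 0.09. Cathepsin C (Ctsc), a dipeptidyl peptidase, rose by 1.004 ± 0.18 after Nodal and had a log2 difference of 0.36 ± 0.18 (adjusted p = 0.0944) after Cripto. Its level was 6.34 in Nodal replicate 1 and 7.57 or higher in the other Nodal arrays. The cysteine protease cathepsin L (Ctsl) was dim, being detected on 20 of 28 arrays. Its log2 difference was -0.29 ± 0.30 after Nodal (adjusted p = 0.433), with replicate 1 at 4.88 and the other Nodal arrays at 6.80 or higher. It fell after Cripto (-0.93 ± 0.31), a call lost without Cripto replicate 4 (-0.73, adjusted p = 0.0584) and with median centring (-0.47). Ctsl was at least 2.45-fold lower in Cripto with SB431542, where it was detected on 0 of 5 arrays. That bound holds on the background-corrected scale only. Under other settings the fitted log2 change against SB431542 alone was as small as -0.61.

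**Figure D2:**
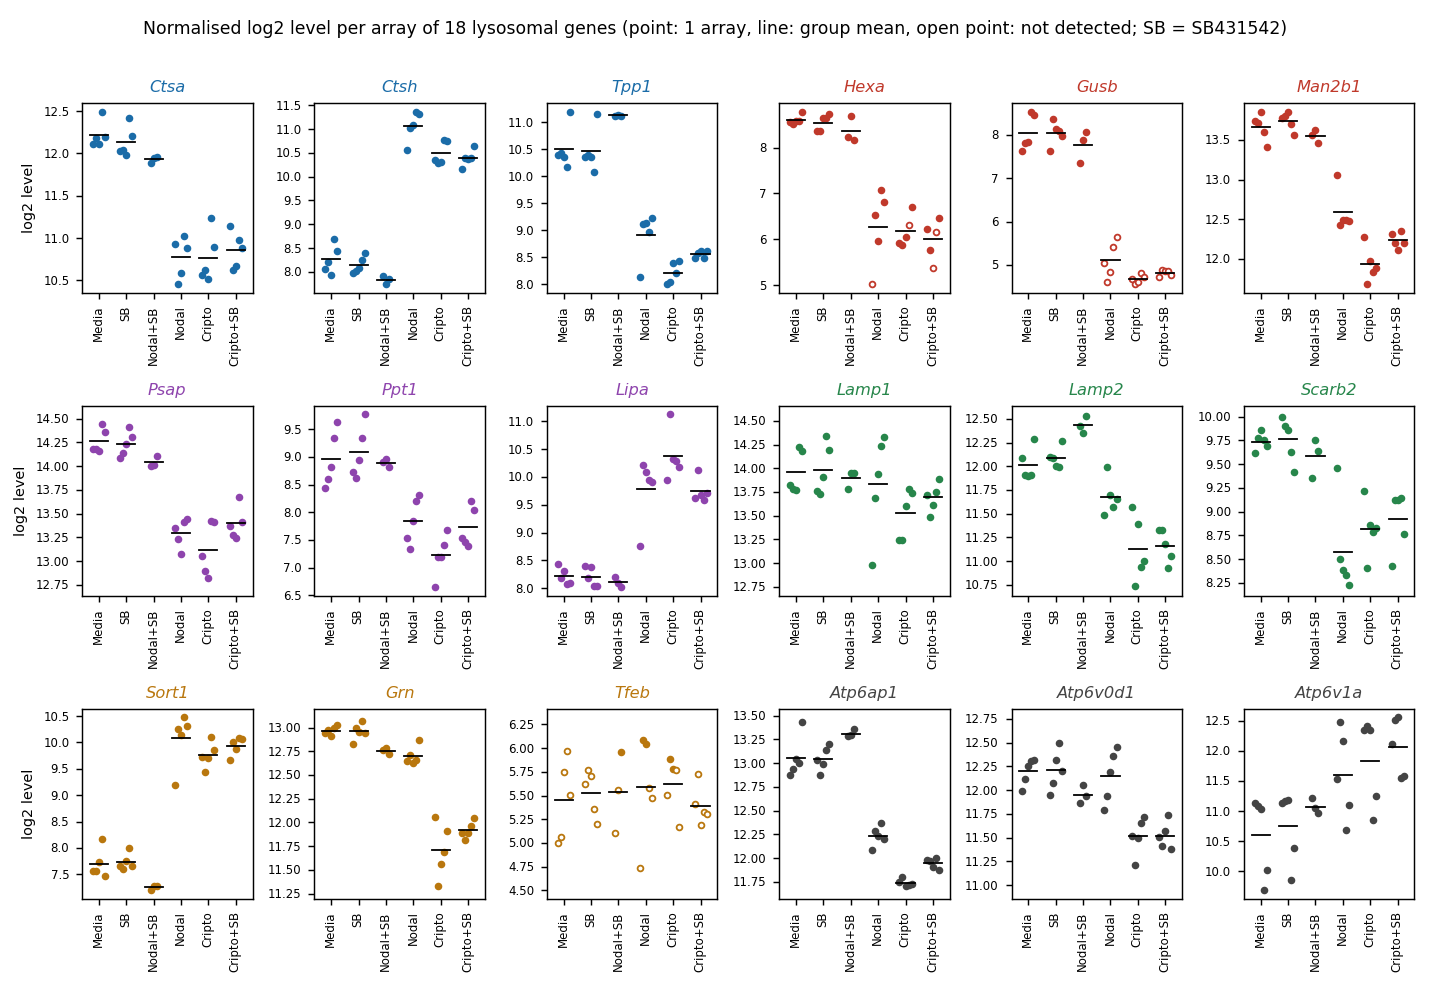
Normalised log2 level (vertical axis, own range in each panel) of 18 lysosomal genes in every array, by group. Each point is 1 array, the line is the group mean, open points were not above background, and colours mark roles. Media, SB431542 and Nodal with SB431542 lie together for most genes, and Cripto with SB431542 lies with Cripto and Nodal.

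The glycosidases, which cut sugars from glycoproteins, glycolipids and glycosaminoglycans, held the largest falls. These were the falls of Gusb and Hexa, both near background in the low groups, with sizes that depend on the processing. Of the 6 measured, 5 fell and 1 rose after Nodal (median -0.79), and 5 fell after Cripto (median -1.61). With median centring 3 fell after Nodal (median -0.27) and 5 after Cripto (median -1.07). Beta-glucuronidase (Gusb) was at 7.63, 7.81, 7.84, 8.54 and 8.45 in Media, at 5.05, 4.61, 4.83, 5.42 and 5.65 with Nodal and at 4.67, 4.56, 4.60, 4.81 and 4.73 with Cripto. It was at 7.64, 8.37, 8.14, 8.08 and 7.97 in SB431542, at 7.35, 7.87 and 8.06 in Nodal with SB431542 and at 4.73, 4.88, 4.86, 4.85 and 4.77 in Cripto with SB431542. The gene was detected on every array of Media, SB431542 and Nodal with SB431542, 13 in all, and on 0 of the 15 others. It was thus at least 4.69-fold lower with Nodal and at least 4.41-fold lower with Cripto than in Media, taking the lowest detected signal of each array as the floor (adjusted p = 7.73e-13 and 8.40e-14). Against SB431542 alone, Cripto with SB431542 was at least 4.34-fold lower. These bounds hold on the background-corrected scale only. Under other settings the fitted log2 change was as small as -0.93 for Nodal, -1.02 for Cripto and -0.98 for Cripto with SB431542. Since Gusb passed the filter only through the groups where it is high, its call adds no support to the count.

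Hexa encodes the alpha subunit of the hexosaminidase that degrades gangliosides. It was 8.57, 8.51, 8.57, 8.58 and 8.79 in Media, 5.02, 6.52, 5.95, 7.08 and 6.81 with Nodal and 5.92, 5.88, 6.05, 6.32 and 6.71 with Cripto. Under SB431542 it was 8.36, 8.36, 8.65, 8.65 and 8.74, with Nodal 8.23, 8.70 and 8.16 and with Cripto 6.23, 5.77, 5.37, 6.16 and 6.46. The low groups did not overlap the high ones, and 4 of 5 Nodal, 4 of 5 Cripto and 3 of 5 Cripto with SB431542 arrays were above background. The log2 change was -2.33 ± 0.21 for Nodal (5.02-fold, adjusted p = 1.11e-08) and -2.40 ± 0.22 for Cripto (5.28-fold, adjusted p = 6.57e-09), sizes that depend on the background correction at such low signals: without it the changes were -1.39 and -1.45, and in the authors' deposited values -0.95 and -0.99.

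Man2b1, the lysosomal alpha-mannosidase, was detected on every array. Its level was 13.73, 13.71, 13.86, 13.60 and 13.41 in Media, 13.05, 12.42, 12.48, 12.49 and 12.47 with Nodal and 12.27, 11.68, 11.98, 11.83 and 11.89 with Cripto. It was 13.78, 13.81, 13.85, 13.70 and 13.56 with SB431542, 13.56, 13.62 and 13.46 with Nodal and SB431542, and 12.32, 12.21, 12.11, 12.35 and 12.20 with Cripto and SB431542. Nodal replicate 1 lay above its group, and Cripto arrays lay below all Nodal arrays. The log2 change was -1.08 ± 0.11 after Nodal (adjusted p = 3.85e-08) and -1.72 ± 0.11 after Cripto (adjusted p = 3.21e-11), and a second probe gave -1.06 and -1.54. Without Nodal replicate 1 the Nodal change was -1.16.

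Naglu, an enzyme of heparan sulfate breakdown, fell after both proteins (-0.49 ± 0.13 after Nodal and -1.50 ± 0.13 after Cripto). Beta-galactosidase (Glb1) also fell (-0.50 ± 0.14 and -1.14 ± 0.14). With median centring both Nodal values turned positive (Naglu 0.12, Glb1 0.08). The sialidase Neu1 rose by 0.46 ± 0.11 after Nodal and had a log2 difference of 0.08 ± 0.11 after Cripto (adjusted p = 0.56).

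Of the 4 genes of lipid breakdown, 3 fell and 1 rose after each protein (medians -0.81 and -1.07, with median centring -0.37 and -0.57). The gene that rose was Lipa, the acid lipase that hydrolyses cholesteryl esters and triglycerides delivered by endocytosis. Lipa was at 8.43, 8.19, 8.30, 8.08 and 8.09 in Media, 8.75, 10.21, 10.09, 9.95 and 9.91 with Nodal and 9.95, 11.12, 10.32, 10.29 and 10.18 with Cripto. The inhibitor groups were at 8.40, 8.18, 8.38, 8.04 and 8.04 for SB431542 alone, 8.20, 8.10 and 8.02 with Nodal and 9.62, 10.13, 9.68, 9.59 and 9.71 with Cripto. Nodal replicate 1 reached only 8.75, close to the Media arrays, while the other Nodal arrays were at 9.91 or higher. The change was 1.56 ± 0.21 for Nodal (adjusted p = 1.87e-06, 0.32 to 2.02 within chips) and 2.19 ± 0.21 for Cripto (adjusted p = 1.58e-08, 1.52 to 2.93 within chips). Without Nodal replicate 1 the Nodal value was 1.83. A second probe gave 1.92 and 2.52.

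Ppt1 removes palmitate from proteins. It stood at 8.45, 8.61, 8.81, 9.34 and 9.63 in Media, at 7.53, 7.34, 7.83, 8.20 and 8.31 with Nodal and at 6.65, 7.20, 7.19, 7.41 and 7.68 with Cripto. Values were 8.74, 8.61, 8.95, 9.35 and 9.77 in SB431542, 8.90, 8.96 and 8.83 with Nodal added and 7.54, 7.46, 7.38, 8.20 and 8.04 with Cripto added. Nodal and Cripto arrays lay below Media arrays without overlap. The change was -1.12 ± 0.12 after Nodal (adjusted p = 6.10e-08) and -1.75 ± 0.12 after Cripto (adjusted p = 8.40e-11).

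Psap, the precursor of the saposins that present sphingolipids to their hydrolases, was 14.18, 14.18, 14.16, 14.44 and 14.36 in Media, 13.34, 13.23, 13.07, 13.41 and 13.44 with Nodal and 13.05, 12.89, 12.83, 13.43 and 13.41 with Cripto. It was 14.08, 14.14, 14.24, 14.41 and 14.31 with the inhibitor alone, 14.005, 14.01 and 14.10 with Nodal and 13.37, 13.28, 13.25, 13.67 and 13.41 with Cripto. The low groups again lay apart from the high ones. Psap changed by -0.97 ± 0.08 after Nodal (adjusted p = 4.41e-09) and by -1.15 ± 0.09 after Cripto (adjusted p = 3.34e-10), with -0.60 and -0.79 on a second probe. Acid ceramidase (Asah1) fell as well (-0.65 ± 0.07 and -0.99 ± 0.08), and its second probe gave -1.14 and -1.56. With median centring the Asah1 values were -0.22 (adjusted p = 0.199) and -0.49, and the Nodal call was lost.

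The 5 membrane proteins moved less evenly, with 2 lower and 2 higher after Nodal (median -0.12) and 3 lower after Cripto (median -0.45). With median centring these medians were 0.33 and 0.06. Scarb2 encodes LIMP-2, the receptor that carries glucocerebrosidase to the lysosome. It was 9.62, 9.77, 9.86, 9.75 and 9.69 in Media, 9.45, 8.50, 8.38, 8.33 and 8.23 with Nodal and 9.22, 8.40, 8.86, 8.78 and 8.82 with Cripto. It was 10.002, 9.90, 9.86, 9.63 and 9.42 with SB431542, 9.36, 9.75 and 9.64 with Nodal and SB431542, and 8.43, 9.12, 9.12, 9.15 and 8.76 with Cripto and SB431542. Nodal replicate 1 was nearest to Media, and no Nodal or Cripto array reached the Media range. The change was -1.16 ± 0.17 for Nodal (adjusted p = 6.12e-06) and -0.93 ± 0.17 for Cripto (adjusted p = 8.30e-05). A second, dimmer probe gave 0.10 and -0.03, neither past the test. The Cripto call was also lost with brightness as a covariate (-0.33) and with median centring (-0.29).

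Lamp2 encodes an abundant, heavily glycosylated protein of the lysosomal membrane that is made in several splice forms. On its brightest probe it was 12.08, 11.91, 11.90, 11.91 and 12.28 in Media, 11.48, 11.99, 11.69, 11.58 and 11.66 with Nodal and 11.57, 10.74, 11.39, 10.94 and 10.997 with Cripto. It was 12.10, 12.09, 12.003, 11.99 and 12.26 in SB431542, 12.43, 12.35 and 12.53 with Nodal added and 11.33, 11.33, 11.18, 10.93 and 11.05 with Cripto added. Cripto arrays lay below Media arrays, while Nodal replicate 2 lay within their range. Lamp2 changed by -0.90 ± 0.14 after Cripto (adjusted p = 1.35e-05), a call lost with median centring (-0.33, adjusted p = 0.139). After Nodal it changed by -0.34 ± 0.14 (adjusted p = 0.0467), a call lost when any of 16 of the 28 arrays was left out (-0.24 without Media replicate 5, adjusted p = 0.167). The 5 other detected probes of Lamp2 did not move alike. One near the first in brightness gave -0.43 after Nodal and -0.95 after Cripto. Another 3 gave -1.21, -1.73 and -1.87 after Nodal and -1.90, -2.76 and -2.26 after Cripto, all past the test. The dimmest, detected on 3 arrays, gave -0.003 and 0.27. Which transcripts each probe reads is not given in the sources used here.

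Lamp1, the other major membrane glycoprotein, was 13.83, 13.78, 13.78, 14.22 and 14.18 in Media, 12.98, 13.68, 13.94, 14.24 and 14.33 with Nodal and 13.25, 13.24, 13.61, 13.78 and 13.74 with Cripto. It was 13.76, 13.73, 13.91, 14.34 and 14.19 with SB431542, 13.78, 13.95 and 13.95 with Nodal and SB431542, and 13.71, 13.49, 13.61, 13.75 and 13.89 with Cripto and SB431542. The groups overlapped, and Nodal replicate 1 was the lowest array. Its log2 difference was -0.12 ± 0.12 after Nodal (adjusted p = 0.412), and it changed by -0.45 ± 0.13 after Cripto (adjusted p = 0.00412), which became 0.06 with median centring. The tetraspanin Cd63 rose by 0.36 ± 0.10 after Nodal, but its other 2 detected probes gave -0.14 and 0.02, neither past the test. After Cripto its log2 difference was 0.14 ± 0.10 (adjusted p = 0.223). Mcoln1, the cation channel of the lysosomal membrane, rose by 0.39 ± 0.13 after Nodal, a call lost without Media replicate 2 or Nodal replicate 5 (adjusted p up to 0.0541), and had a log2 difference of -0.18 ± 0.13 after Cripto (adjusted p = 0.238).

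Of the 4 genes of sorting and regulation, 1 rose and 1 fell after each protein. Sortilin (Sort1), which carries prosaposin and other cargo from the Golgi to the lysosome, rose. Its level was 7.57, 7.56, 7.73, 8.17 and 7.46 in Media, 9.19, 10.25, 10.15, 10.47 and 10.31 with Nodal and 9.72, 9.43, 9.71, 10.09 and 9.85 with Cripto. The inhibitor groups stood at 7.66, 7.59, 7.75, 7.999 and 7.65 without protein, 7.20, 7.28 and 7.28 with Nodal and 9.66, 10.002, 9.87, 10.08 and 10.06 with Cripto. The lowest Nodal array, replicate 1 at 9.19, was above the highest Media array at 8.17. The rise was 2.38 ± 0.14 for Nodal (5.2-fold, adjusted p = 1.75e-11) and 2.07 ± 0.15 for Cripto (4.21-fold, adjusted p = 1.83e-10). The 3 other detected probes also rose, by 0.68 to 2.22 after Nodal and 0.80 to 1.96 after Cripto.

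Progranulin (Grn), a glycoprotein that sortilin brings into the lysosome, was 12.94, 12.98, 12.91, 12.99 and 13.02 in Media, 12.65, 12.72, 12.62, 12.65 and 12.87 with Nodal and 12.06, 11.33, 11.57, 11.68 and 11.91 with Cripto. It was 12.83, 12.996, 12.95, 13.07 and 12.95 with SB431542, 12.76, 12.79 and 12.72 with Nodal and SB431542, and 11.88, 11.81, 11.89, 11.96 and 12.04 with Cripto and SB431542. Cripto arrays lay below all Nodal arrays, which in turn lay just under all Media arrays. The change was -1.26 ± 0.10 for Cripto (adjusted p = 1.50e-09) and -0.27 ± 0.10 for Nodal (adjusted p = 0.0284). The Nodal call was lost without Media replicate 2 (adjusted p = 0.0838), without Media replicate 4 or without Nodal replicate 1, 3 or 4, and its sign turned with median centring (0.20). M6pr, the smaller mannose 6-phosphate receptor, had log2 differences of 0.07 ± 0.11 and 0.16 ± 0.12, neither past the test, while its second probe rose by 0.53 and 0.76.

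Tfeb was near background, detected on 5 of 28 arrays. It read 4.996, 5.06, 5.75, 5.97 and 5.51 in Media, 4.74, 6.08, 6.04, 5.58 and 5.48 with Nodal and 5.51, 5.89, 5.78, 5.77 and 5.17 with Cripto. With the inhibitor it read 5.62, 5.77, 5.71, 5.35 and 5.20 alone, 5.10, 5.56 and 5.96 with Nodal and 5.41, 5.73, 5.19, 5.33 and 5.31 with Cripto. The groups overlapped throughout. The log2 change was 0.13 ± 0.19 for Nodal (95% interval -0.27 to 0.53, adjusted p = 0.591) and 0.19 ± 0.20 for Cripto (-0.22 to 0.60, adjusted p = 0.402). At such a signal a change of Tfeb was not detectable on these arrays, which does not show that there was none.

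The proton pump genes were divided in direction. Of the 7 genes, 3 rose and 1 fell after Nodal (median 0.24), and 3 rose and 3 fell after Cripto (median -0.07). With median centring 6 rose and 0 fell after Nodal (median 0.77), and 4 rose and 1 fell after Cripto (median 0.51). The genes that rose were of the cytosolic V1 sector, which splits ATP: Atp6v1a, its catalytic subunit, Atp6v1b2 and Atp6v1h. Atp6v1a was 11.14, 11.09, 11.04, 9.68 and 10.02 in Media, 11.53, 12.48, 12.16, 10.68 and 11.11 with Nodal and 12.35, 12.41, 12.34, 10.85 and 11.24 with Cripto. It was 11.13, 11.17, 11.19, 9.86 and 10.38 with SB431542, 11.22, 11.04 and 10.96 with Nodal and SB431542, and 12.11, 12.52, 12.56, 11.54 and 11.58 with Cripto and SB431542. Replicates 4 and 5, on chips 5 to 7, were lower than replicates 1 to 3 in each group that had them, so the groups overlapped although the Nodal array was higher than the Media array on every shared chip (0.39 to 1.39). With the chip in the fit the rise was 0.997 ± 0.13 for Nodal (adjusted p = 1.47e-06) and 1.25 ± 0.13 for Cripto (adjusted p = 6.19e-08, 1.16 to 1.32 within chips). Atp6v1b2 rose by 0.60 ± 0.10 and 0.64 ± 0.10. Atp6v1h rose by 0.55 ± 0.23 (adjusted p = 0.0437) and 0.62 ± 0.23 (adjusted p = 0.0237). With brightness as a covariate the Atp6v1h differences were 0.03 and 0.04, its Nodal call was lost without any of 11 of the 28 arrays (adjusted p up to 0.138), and without Nodal replicate 1 it rose to 0.88. After Cripto the Atp6v1h call was lost without Media replicate 2 or 3 (adjusted p up to 0.0572). For Cripto with SB431542 against SB431542 alone, the Atp6v1h difference was -0.12 and did not pass. Its interaction of Cripto with SB431542 was -0.74 ± 0.33 (limma, adjusted p = 0.298).

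Atp6ap1, an accessory protein needed to assemble the pump, fell. It was 12.88, 12.93, 13.04, 13.0002 and 13.44 in Media, 12.08, 12.28, 12.24, 12.37 and 12.20 with Nodal and 11.74, 11.80, 11.71, 11.72 and 11.73 with Cripto. It was 13.04, 12.88, 12.99, 13.14 and 13.20 in SB431542, 13.28, 13.30 and 13.35 with Nodal added and 11.98, 11.97, 11.91, 12.01 and 11.88 with Cripto added. Nodal arrays lay between Media and Cripto arrays with no overlap on either side. Atp6ap1 changed by -0.83 ± 0.09 after Nodal (adjusted p = 1.90e-07) and by -1.32 ± 0.09 after Cripto (adjusted p = 1.77e-10). With median centring the values were -0.36 and -0.82, and the Nodal call was lost (adjusted p = 0.0549).

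In the membrane sector V0, Atp6v0d1 was 11.996, 12.11, 12.25, 12.31 and 12.31 in Media, 11.79, 11.93, 12.19, 12.36 and 12.46 with Nodal and 11.52, 11.21, 11.50, 11.66 and 11.71 with Cripto. It was 11.95, 12.08, 12.31, 12.50 and 12.20 with SB431542, 11.86, 12.06 and 11.94 with Nodal and SB431542, and 11.51, 11.41, 11.57, 11.74 and 11.38 with Cripto and SB431542. Cripto arrays lay below Media arrays and Nodal arrays overlapped them. On the brightest probe the log2 difference was -0.05 ± 0.09 after Nodal (adjusted p = 0.675) and the change -0.68 ± 0.09 after Cripto (adjusted p = 1.87e-06). The other 3 probes gave 0.21 to 0.35 after Nodal and -0.08 to 0.11 after Cripto, and 2 of them passed, both as higher after Nodal. The fall after Cripto thus rests on 1 of 4 probes. With the probes averaged it was -0.18 (adjusted p = 0.0992) and with median centring -0.12 (adjusted p = 0.511). Atp6v0b, also of V0, had log2 differences of 0.24 ± 0.12 and -0.07 ± 0.12, neither past the test. The accessory protein Atp6ap2 had a log2 difference of -0.05 ± 0.09 after Nodal and fell after Cripto (-0.55 ± 0.10), which median centring brought to 0.01, and its other 3 probes gave -0.37 to -0.28 after Cripto, none past the test.

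For SB431542 alone against Media, 0 of 35 genes passed in limma, as did 0% of all genes, and at an unadjusted p under 0.05 there were 0 of the 35 and 270 of all 9951. The 35 changes lay between -0.15 and 0.15 on the log2 scale, with a median of 0.02.

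With SB431542 present, fewer lysosomal genes passed after Nodal. Against SB431542 alone, 1 of 35 genes passed, which was higher (3.68% of all genes, 3.2% higher and 0.482% lower), and 4 did so at an unadjusted p under 0.05, with a median change of -0.13. The count was 2 without Nodal replicate 1. The gene was Tpp1, which rose by 0.74 ± 0.19 (adjusted p = 0.037) with groups that overlapped, where Nodal alone had lowered it. That call was lost when any of 8 arrays was left out, among them each Nodal with SB431542 array (adjusted p = 0.235 without replicate 1). The log2 difference of Ctsh was -0.14 ± 0.12, that of Sort1 -0.36 ± 0.17, that of Gusb -0.21 ± 0.18 and that of Hexa 0.04 ± 0.26, none past the test. All 3 Nodal with SB431542 arrays were on chips 1 to 4.

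The test of the difference, the interaction of Nodal with SB431542, passed for 23 of 35 genes (43.9% of all genes), 13 with a positive and 10 with a negative sign (21.5% and 22.4% of all genes). It was -2.95 ± 0.16 for Ctsh (adjusted p = 1.30e-11), -2.73 ± 0.23 for Sort1, -1.69 ± 0.32 for Lipa, 2.34 ± 0.25 for Tpp1, 2.37 ± 0.33 for Hexa and 1.13 ± 0.14 for Atp6ap1. Called genes that Nodal alone had raised had a negative sign and those it had lowered a positive one. The interaction subtracts the change with Nodal alone, taken from the same Nodal and Media arrays. Opposite signs therefore follow largely from the arithmetic and are not counted as a result. Ctsl (1.21) and Atp6v0b (-0.56) had no called change with Nodal alone. For Scarb2 (0.84) the call was lost without Nodal with SB431542 replicate 2 (adjusted p = 0.0651), and for Lamp2 (0.64) without replicate 3 of that group (0.0628) or SB431542 replicate 3. The calls of Atp6v0b and Ctsc were lost without 1 array each (Nodal with SB431542 replicate 2 and Media replicate 4), and those of Mcoln1 and Ctsl without any of 10. Compared directly, Nodal with SB431542 differed from Nodal in 24 of 35 genes (53.6% of all genes), 13 higher and 11 lower (26% and 27.6% of all genes). The same 5 Nodal arrays enter this contrast and the one against Media. There the call of Cd63 was lost without any of 20 arrays, that of Mcoln1 without Nodal with SB431542 replicate 2 and that of Ctsl without replicate 1 of that group.

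The interaction of Cripto with SB431542 passed for 0 of 35 genes in limma (0.653% of all genes, 0.281% with a positive and 0.372% with a negative sign), with 4 of the 35 at an unadjusted p under 0.05. Against SB431542 alone, Cripto with SB431542 changed Ctsh by 2.25 ± 0.11, Sort1 by 2.25 ± 0.15, Lipa by 1.44 ± 0.22, Atp6v1a by 1.21 ± 0.14, Tpp1 by -2.07 ± 0.17, Man2b1 by -1.44 ± 0.11, Naglu by -1.64 ± 0.14 and Grn by -1.04 ± 0.11. Of these 8 genes Lipa had the highest adjusted p (6.87e-06). Calls near the threshold there were Lamp1 (-0.32, adjusted p = 0.0364) and Cd63 (0.24, adjusted p = 0.0439), which were lost without any of 8 and any of 20 arrays, with adjusted p up to 0.0876 and 0.145. Median centring turned Lamp1 to 0.03. The interval of the interaction for Ctsh was -0.28 to 0.35 and for Tpp1 -0.25 to 0.73.

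Cripto with SB431542 differed from Cripto alone in 3 of 35 genes, 2 higher and 1 lower (8.6% of all genes, 4.22% higher and 4.38% lower). Psap (0.32 ± 0.09) and Ppt1 (0.41 ± 0.12) were higher with the inhibitor, and Ctsl was lower (at least 1.23-fold on the background-corrected scale). The count rested on single arrays: it was 0 without Cripto replicate 3, Cripto with SB431542 replicate 1 or Cripto with SB431542 replicate 4, 1 without Cripto replicate 2, 6 without Cripto with SB431542 replicate 2 and 7 without Nodal replicate 1.

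Nodal and Cripto, given at different doses, were set against each other directly. The Media arrays enter this contrast only through the chip terms and the spread of the shared fit. Of the 35 genes 18 differed (51.4%, against 25.1% of all genes), 17 higher with Nodal and 1 lower, where 13.6% of all genes were higher and 11.4% lower. Gusb is counted among the 17 but was above background on 0 of 5 arrays of either group, so its call compares signals with no measured level on either side. The widest differences were Naglu (1.01 ± 0.13, adjusted p = 2.15e-05) and Grn (0.99 ± 0.10, adjusted p = 1.81e-06), followed by Tpp1 (0.71 ± 0.16), Man2b1 (0.64 ± 0.11), Glb1 (0.64 ± 0.14), Ctsc (0.64 ± 0.18), Atp6v0d1 (0.64 ± 0.09) and Ppt1 (0.62 ± 0.12). Most of these are hydrolases that Cripto had lowered further. Lipa was the gene that was lower with Nodal (-0.62 ± 0.21, adjusted p = 0.0354), and without Nodal replicate 1 its difference was -0.35 and no longer passed. The Lipa call was also lost without Cripto replicate 2 (adjusted p = 0.132), 3 or 4. Leaving out single arrays also ended the calls of Neu1 and Ctsc (2 arrays each). The count was 9 with median centring, 10 without the chip term and 8 on chips 1 to 4 alone, all higher with Nodal.

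Other genes of the same pathways were read as lists. For comparison, 28.7% of all genes rose and 28.9% fell after Nodal, and 32% rose and 32.5% fell after Cripto. Of 30 further lysosomal enzymes and activators, 19 were measured, of which 9 fell and 3 rose after Nodal and 14 fell and 4 rose after Cripto (medians -0.38 and -0.78). With median centring 2 fell and 5 rose after Nodal (median 0.12) and 5 fell and 4 rose after Cripto (median -0.23). The arylsulfatases Arsb and Arsa fell after both, Arsb with log2 changes of -2.40 ± 0.25 after Nodal and -3.11 ± 0.25 after Cripto and Arsa with -0.89 ± 0.08 and -1.62 ± 0.08. Arsb was detected on 4 of 5 Nodal and 3 of 5 Cripto arrays, so its sizes depend on the background correction. Of 15 measured lysosomal membrane proteins, 5 fell and 4 rose after Nodal and 7 fell and 3 rose after Cripto (medians 0.03 and -0.27, with median centring 0.66 and 0.30). Laptm5 in that list fell (-2.47 ± 0.34 and -2.81 ± 0.35), and the sialic acid transporter Slc17a5 rose after Nodal (1.06 ± 0.21).

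Among 11 other V-ATPase subunits, 4 rose and 1 fell after Nodal and 5 rose and 2 fell after Cripto (medians 0.17 and 0.09, with median centring 0.58 and 0.68), with Atp6v1d, another V1 subunit, at 0.83 ± 0.11 and 0.64 ± 0.11. Of 13 genes of mannose 6-phosphate sorting, 4 fell and 3 rose after Nodal, near the shares of all genes. After Cripto 6 fell and 3 rose (medians 0.04 and -0.14). In that list Gnptg, a subunit of the enzyme that builds the sorting tag, fell (-0.68 ± 0.10 and -1.21 ± 0.11). Vps26a, of the retromer that recycles sorting receptors, rose by 0.98 ± 0.10 and 0.92 ± 0.10. With median centring 7 rose and 0 fell after Nodal and 6 rose and 1 fell after Cripto (medians 0.60 and 0.46). The fall of Gnptg after Nodal thus no longer passed.

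Of 13 genes of the TFEB family and of lysosomal mTORC1 control, 3 rose and 3 fell after Nodal and 2 rose and 3 fell after Cripto (medians 0.0033 and 0.05). These shares were not above those of all genes. With median centring 9 rose and 0 fell after Nodal and 9 rose and 1 fell after Cripto (medians 0.60 and 0.62). Tfe3, a relative of Tfeb detected on every Media, Nodal and Cripto array, fell (-1.02 ± 0.20 and -0.47 ± 0.20). Its fall after Nodal no longer passed with median centring. Tfec, another relative, rose by 1.74 ± 0.41 and 2.27 ± 0.42 but was detected on 3 of 5 Nodal and 3 of 5 Cripto arrays, and its groups overlapped Media. Of 16 autophagy genes, 8 rose and 2 fell after Nodal and 7 rose and 2 fell after Cripto (medians 0.34 and 0.25, with median centring 0.93 and 0.88). The cargo receptor Sqstm1 rose by 0.50 ± 0.17 and 1.17 ± 0.17 and Gabarap by 0.72 ± 0.20 and 0.98 ± 0.21. The kinase Ulk1 (-0.73 ± 0.09 and -0.72 ± 0.09) and Map1lc3b (-0.63 ± 0.12 and -0.996 ± 0.13) fell. With median centring 10 autophagy genes rose and 0 fell after Nodal, so neither fall passed there, and 10 rose and 1 fell after Cripto. Of 7 cathepsin inhibitors 2 were measured. Cystatin B (Cstb) rose by 0.51 ± 0.09 and 0.38 ± 0.09 and cystatin C (Cst3) fell (-0.26 ± 0.07 and -0.39 ± 0.08). With median centring 1 of the 2 rose and 0 fell after each protein (medians 0.59 and 0.52), so the fall of Cst3 no longer passed.

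**Figure D3:**
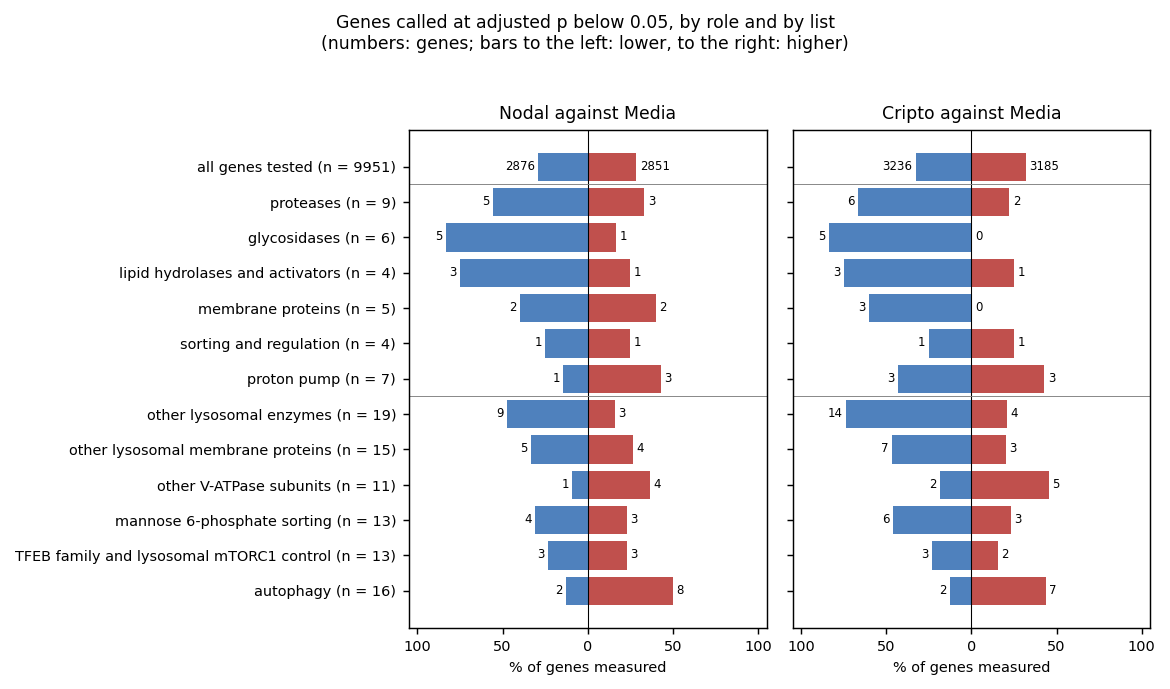
Share of measured genes (horizontal axis, percent) that passed at an adjusted p below 0.05 against Media, lower to the left and higher to the right, for all 9951 genes, the 6 roles and 6 other lists, after Nodal (left) and Cripto (right). Numbers at the bars are genes. Glycosidases, lipid hydrolases and other lysosomal enzymes lean to the left and the other V-ATPase subunits and autophagy genes to the right. With arrays centred on their medians, more genes were higher than lower after both proteins among the membrane proteins, the genes of sorting and regulation, the proton pump, the other membrane proteins, the mannose 6-phosphate genes and the TFEB family, and after Nodal among the other lysosomal enzymes.

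The scaling of the arrays shifts these values. Quantile normalisation makes the distributions of the arrays identical and cannot show a change of most genes at once. Centring on the median moved the median change of all genes to 0.45 after Nodal and 0.44 after Cripto. The median was taken over all 45281 probes of an array, of which 13191 to 16183 were detected, so it lay among undetected probes. Such centring aligns the arrays near background and leaves differences in brightness of the detected probes in the changes. With median centring Hexa, Tpp1, Man2b1, Ppt1, Ctsa, Psap and Ctsb still passed as lower after both proteins, at smaller sizes. So did, as higher, Ctsh, Sort1, Lipa, Atp6v1a, Lgmn and Atp6v1b2. The called genes whose sign turned after Nodal were Grn, Lamp2, Ctsz, Glb1 and Naglu, and after Cripto Lamp1, Atp6ap2 and Ctsz. The falls of Atp6ap1, Asah1 and Ctsd after Nodal and of Lamp2, Scarb2, Atp6v0d1, Ctsd and Ctsl after Cripto kept their sign but no longer passed. With brightness as a covariate the calls of Ctsd, Ctsz, Glb1, Grn, Lamp2, Cd63, Mcoln1, Neu1 and Atp6v1h after Nodal and of Ctsd, Ctsz, Scarb2 and Atp6v1h after Cripto were lost.

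**Figure D4:**
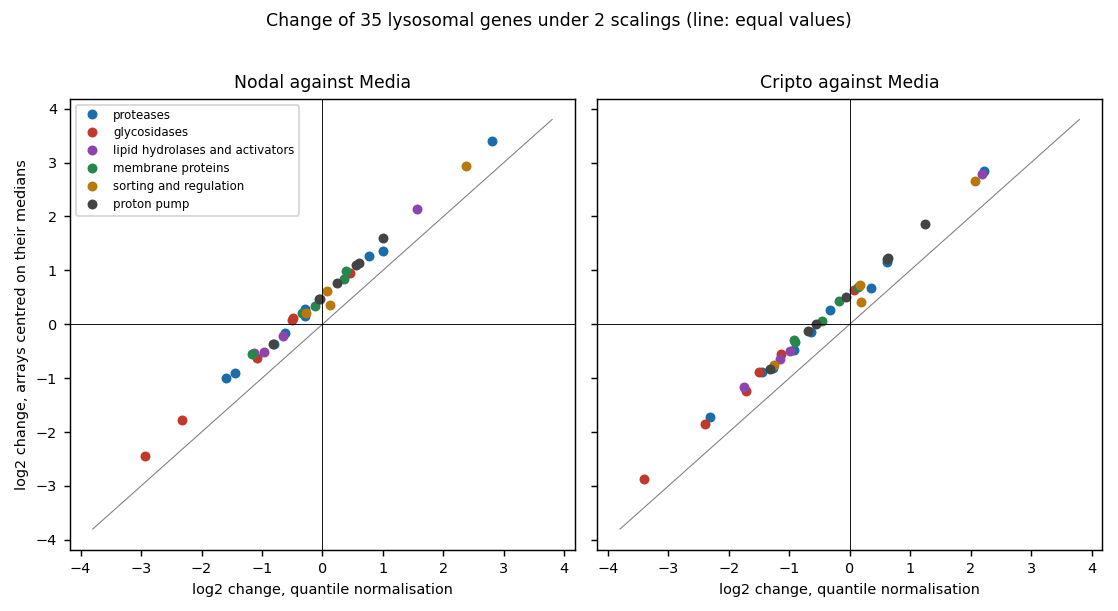
Log2 change of the 35 genes with quantile normalisation (horizontal axis) against the change with each array centred on the median of all its probes (vertical axis), for Nodal (left) and Cripto (right). Points are genes coloured by role and the grey line marks equal values. The points lie above the line on a parallel course, and the called genes left of 0 and above 0 (Grn, Lamp2, Ctsz, Glb1 and Naglu after Nodal, Lamp1, Atp6ap2 and Ctsz after Cripto) changed sign.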

How the data were processed

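Per the file headers, the deposited scanner files hold 45281 probes on each of 28 arrays (7 BeadChips), with the average signal intensity and the detection p-value. The authors' deposited processed values are on a log2 scale. BeadStudio and lumi are named in the submitters' processing notes, with versions and roles not given in the sources used here. From the intensities, limma 3.58.1 in R 4.3.3 corrected the background (normexp fitted from the detection p-values, offset 16), quantile normalised and took log2. Probes with a detection p-value below 0.01 on at least 3 arrays were kept (18471), and each gene was read from its probe of highest mean, giving 9951 genes. The fit held group and BeadChip as fixed terms, with 16 residual and 4.19 prior degrees of freedom, and p-values were adjusted by Benjamini-Hochberg over all genes. A call is an adjusted p below 0.05, ± is a standard error unless marked SD, and intervals are at a level of 0.95. Of the probes, 34885 had 1 gene symbol, 18 several and 10378 none. The 18 genes given array by array are, in each role, the 3 called genes with the largest change after Nodal or Cripto, and Tfeb. Lists name up to 2 called genes for each protein by the same measure. Members and lists were chosen with earlier results of these data known. The procedure was tested on simulated data. The number of arrays limits the precision. Alternatives covered background, offset, scaling, detection filter, chip term, brightness, the deposited values, averaged probes and each array left out. Motifs were sought on both strands.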

Additional observations from a re-analysis of the deposited data

Results flagged for a closer look

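Among 90 groups of 4 or more arrays looked at for the 18 genes given array by array, 10 had 1 array farther from the others than Dixon's 95% limit allows. Nodal replicate 1 accounted for 5 of them: Tpp1 was at a log2 level of 8.14 against 8.96 to 9.22 in the other Nodal arrays, Man2b1 at 13.05 against 12.42 to 12.49, Lipa at 8.75 against 9.91 to 10.21, Scarb2 at 9.45 against 8.23 to 8.50 and Sort1 at 9.19 against 10.15 to 10.47. Media replicate 5 accounted for another 3, with Tpp1 at 11.20 against 10.17 to 10.44, Hexa at 8.79 against 8.51 to 8.58 and Atp6ap1 at 13.44 against 12.88 to 13.04. Ctsa stood apart in Media replicate 4 (12.50 against 12.11 to 12.20) and Lipa in Cripto with SB431542 replicate 2 (10.13 against 9.59 to 9.71). The 18 genes share the same arrays and the levels were not adjusted for the chip, so the count is not set against a chance rate.

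The effect of Nodal differed with and without SB431542 by the interaction test of limma in 23 of the 35 measured genes. Among the genes given array by array, the interaction on the log2 scale was -2.95 for Ctsh, -2.73 for Sort1, -1.69 for Lipa and -1.10 for Atp6v1a, whose levels were higher with Nodal. It was 2.37 for Hexa, 2.34 for Tpp1, 1.36 for Ctsa, 1.21 for Ppt1, 1.13 for Atp6ap1, 0.86 for Psap, 0.84 for Scarb2, 0.81 for Man2b1 and 0.64 for Lamp2, whose levels were lower with Nodal. The fitted value of 2.73 for Gusb is not a measured size, since the gene was above background on 0 of 5 Nodal arrays. Because the interaction subtracts the change with Nodal alone, its opposite sign is not a separate result.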

How the results depend on the processing

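Over 153 called values of single genes, 1836 refits under other settings kept direction and call in 1654 cases, lost the call in 173 and reversed the sign in 9, and 4284 refits that left out 1 array kept the call in 4120, lost it in 164 and reversed 0. All 9 reversals came with median centring: Grn 0.20, Lamp2 0.21, Ctsz 0.28, Glb1 0.08 and Naglu 0.12 for Nodal against Media, Lamp1 0.059, Atp6ap2 0.012 and Ctsz 0.26 for Cripto against Media, and Lamp1 0.029 for Cripto with SB431542 against SB431542.

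With median centring the median log2 change of the 35 genes was 0.28 for Nodal, -0.12 for Cripto, 0.050 for SB431542 with added Nodal and -0.27 with added Cripto, -0.18 for Nodal with SB431542 against Nodal, -0.072 for Cripto with SB431542 against Cripto, -0.23 for the Nodal interaction and -0.066 for the Cripto interaction. For Nodal against Media the median was -0.12 without background correction, -0.16 with offset 50, -0.088 with brightness, -0.12 in the deposited values and -0.025 without Nodal replicate 1, Media replicate 5 and SB431542 replicate 5. For Cripto against Media it was -0.46 without background correction, -0.55 with offset 50, -0.51 with brightness, -0.47 in the deposited values and -0.45 with probes averaged. For Cripto with SB431542 against SB431542 it was -0.52 without background correction, -0.61 without the detection filter, -0.57 with brightness, -0.50 in the deposited values and -0.47 with probes averaged. For the Nodal interaction it was 0.11 with brightness, 0.12 in the deposited values and 0.067 without the 3 arrays, and for Nodal against Cripto 0.49 without them.

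Calls for Nodal with SB431542 against SB431542 were 0 with median centring, without the filter and without the chip term, and 4 without the 3 arrays. For Cripto with SB431542 against Cripto they were 1 with median centring, 0 without the chip term, 5 with probes averaged, 0 on chips 1 to 4 and 7 without the 3 arrays. For Nodal against Cripto they were 9 with median centring, 10 without the chip term and 8 on chips 1 to 4, and for the Cripto interaction 1 with probes averaged. Chips 1 to 4 alone and the 3 arrays left out together were settings chosen after seeing the data.

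With 1 array left out, calls ranged from 24 to 29 for Nodal, 27 to 29 for Cripto, 0 to 2 when SB431542 alone was set against its combination with Nodal and 26 to 28 against that with Cripto, 22 to 26 for Nodal with SB431542 against Nodal, 0 to 7 for Cripto with SB431542 against Cripto, 15 to 21 for Nodal against Cripto and 19 to 23 for the Nodal interaction. The median ranged from -0.288 to -0.0141 for Nodal (highest without Nodal replicate 1), -0.7463 to -0.5488 for Cripto, 0.0188 to 0.1172 for Cripto with SB431542 against Cripto, 0.3055 to 0.4853 for Nodal against Cripto and 0.0725 to 0.2226 for the Nodal interaction.

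The cause of these movements was not tested. No paired analysis was possible by replicate number because the labels give none that groups share. Arrays of different groups were matched by their shared BeadChip, which was a term of the fit. Genes near background (Gusb, Tfeb, Ctsl, Hexa) have sizes limited by the signal, and SB431542 has no stated dose.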
